A study of Mus musculus with 8 samples.

Results

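Chemokines are small secreted proteins that direct the movement of leukocytes, and they were examined here with their receptors in whole mouse kidney. The members were 43 named genes, of which 42 had a row among the 37583 gene rows of the count files and 26 had enough reads to be tested. Ccl28 was without a row. Members were matched by Ensembl identifier and symbol, not by their values, and were placed in a monocyte group (14 genes), a neutrophil group (4), a lymphocyte group (12), a homeostatic group (9) and the atypical receptors (4).

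The study profiled 8 whole-kidney samples of mice by RNA-seq; the labels do not say whether each came from a separate animal. The genotype of 4 was labelled b-actinCreERT2+TFAP2Bfl/fl, and these are named knockout 1 to knockout 4. They carry loxP-flanked Tfap2b alleles and Cre-ERT2, a recombinase switched on by tamoxifen, from a beta-actin promoter that is active in most cell types, leukocytes included. The other 4 were control littermates labelled WT, named wildtype 1 to wildtype 4. The sources used here do not state whether the controls carried floxed alleles or received tamoxifen, nor the dose, time, age and sex. The transcription factor that Tfap2b encodes, AP-2 beta, acts in distal nephron segments, and the comparison asks which kidney transcripts differ between the genotypes.

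Libraries held 13435113 to 17930347 gene counts. Tfap2b itself stood higher in the libraries labelled knockout (245 ± 14.1 CPM) than in those labelled wildtype (103 ± 6.73 CPM, SD, n = 4 each). Counts over the whole gene do not check the deletion, so every direction below compares libraries by their labels. CPM are counts scaled to library size, after TMM normalisation. The kidney tubule markers Umod and Slc12a3 were abundant in all 8 libraries, from 580 CPM (Slc12a3 in knockout 1) to 7730 CPM (Umod in wildtype 4). Knockout 1 stood apart in immune transcripts and knockout 4 in adrenal transcripts, where the summed CPM of 10 adrenal markers was 245.3 against 7.64 to 11.3 in the other 7 libraries.

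Most chemokines are secreted on demand by injured epithelium, endothelium, fibroblasts and macrophages, and act on receptors of the G protein-coupled class on leukocytes. Ccl2 and its relatives draw monocytes from blood through Ccr2, Cxcl1, Cxcl2 and Cxcl5 draw neutrophils through Cxcr2, and Cxcl9, Cxcl10 and Cxcl11 draw activated T cells through Cxcr3. Homeostatic chemokines such as Cxcl12 are made without injury, and atypical receptors bind chemokines without G protein signalling. In a homogenate of whole kidney, more cells of a type and more RNA per cell cannot be told apart.

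Of the 26 tested members, 8 rose and none fell (edgeR quasi-likelihood test, Benjamini-Hochberg adjusted p under 0.05). Over all 15228 genes tested, 6.23% rose and 5.7% fell. At an unadjusted p under 0.05, 4133 of all genes differed. The 8 were Cxcr4, Ccl2, Ccl9, Cxcl1, Ccl12, Cx3cr1, Cxcl10 and Ccr2, that is 5 of 17 tested ligands and 3 of 9 tested receptors. All 8 rose at least 2-fold, as did 2.3% of all genes. For 11 tested members every library labelled knockout lay above every library labelled wildtype, and for none was the order the reverse; over all genes these shares were 9.42% and 9.05%. The median log2 fold change was 0.84 over the tested members and 0.00 over all genes. The filter keeps genes that reach 0.619 CPM in at least 4 libraries, so a low gene can enter through one group alone. Of the tested members, 19 exceeded that level in all 4 libraries labelled wildtype, and 5 of these 19 rose. The other 3 rising members, Ccl2, Ccl12 and Cxcl1, were above it in all libraries labelled knockout but only in 2, 0 and 1 of those labelled wildtype.

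The start regions of rising members are shown, and whether these genes share regulation was not tested. Each region is the 250 bases before the annotated start in RefSeq (GRCm38.p6), and nothing in the data measures binding there. The RefSeq table matched 32 of the 43 members, with 34 start sites, and Ccl2 was not among them. Capitals mark matches, on either strand, to an NF-kB site, an AP-1 site (TGANTCA), an interferon-stimulated response element (ISRE), a GAS element (TTCNNNGAA) or an AP-2 site (GCCNNNGGC). The regions are chr11:83578637-83578886 on the minus strand for Ccl9, chr11:82101595-82101844 on the plus strand for Ccl12, chr5:90890995-90891244 on the plus strand for Cxcl1, chr9:120068297-120068546 on the minus strand for Cx3cr1, chr9:124101933-124102182 on the plus strand for Ccr2 and chr5:92348890-92349139 on the minus strand for Cxcl10.
Ccl9: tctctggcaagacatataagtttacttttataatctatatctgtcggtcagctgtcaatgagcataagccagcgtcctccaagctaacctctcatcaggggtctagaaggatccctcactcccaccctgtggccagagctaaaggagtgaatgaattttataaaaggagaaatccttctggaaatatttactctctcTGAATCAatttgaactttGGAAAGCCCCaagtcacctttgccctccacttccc
Ccl12: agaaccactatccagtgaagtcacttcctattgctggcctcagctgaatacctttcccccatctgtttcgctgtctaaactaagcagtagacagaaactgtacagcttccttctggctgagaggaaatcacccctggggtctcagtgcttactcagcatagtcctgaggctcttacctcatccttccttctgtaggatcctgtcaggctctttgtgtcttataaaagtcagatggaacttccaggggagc
Cx3cr1: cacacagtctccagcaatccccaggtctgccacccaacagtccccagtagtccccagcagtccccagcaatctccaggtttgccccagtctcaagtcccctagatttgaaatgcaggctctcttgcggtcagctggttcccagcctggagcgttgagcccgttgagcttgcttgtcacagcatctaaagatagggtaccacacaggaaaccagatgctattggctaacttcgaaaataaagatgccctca
Ccr2: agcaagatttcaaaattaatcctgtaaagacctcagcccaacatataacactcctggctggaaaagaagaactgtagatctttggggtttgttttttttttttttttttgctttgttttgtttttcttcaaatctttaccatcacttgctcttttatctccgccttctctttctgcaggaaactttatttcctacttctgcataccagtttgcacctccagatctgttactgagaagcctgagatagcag
Cxcl1: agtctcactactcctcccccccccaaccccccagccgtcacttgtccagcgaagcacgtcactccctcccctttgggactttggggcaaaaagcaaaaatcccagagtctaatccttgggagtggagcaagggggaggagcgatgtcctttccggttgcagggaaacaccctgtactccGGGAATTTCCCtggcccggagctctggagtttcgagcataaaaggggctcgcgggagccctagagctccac
Cxcl10: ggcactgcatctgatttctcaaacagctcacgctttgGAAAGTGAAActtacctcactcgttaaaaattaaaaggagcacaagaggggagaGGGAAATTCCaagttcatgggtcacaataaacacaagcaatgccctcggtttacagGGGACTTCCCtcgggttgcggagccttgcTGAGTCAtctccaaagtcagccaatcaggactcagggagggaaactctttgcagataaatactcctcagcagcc
In Ccl9 an AP-1 match began 53 bases and an NF-kB match 35 bases before the start. In Cxcl1 the capitals are NF-kB matches on opposite strands, beginning 71 and 70 bases before the start and overlapping each other. Cxcl10 held an ISRE match at 213 bases, NF-kB matches at 159 and 103 bases and an AP-1 match at 74 bases before the start. Of the 7 rising members with a window, 4 held no match, namely Ccl12, Cx3cr1, Ccr2 and Cxcr4, the last of which is not printed. Cxcl1 and Cxcl10 were added to the set after their values were seen, and both hold NF-kB matches. An NF-kB match was present in 7 of the 34 member windows (20.6%) and in 3.9% of 32851 windows over all genes. The AP-2 letters were present in 1 member window, that of Cx3cl1 (2.94%), against 13.7% of all windows, and in 0 of the 7 windows of members that rose. The share of all windows was 6.75% for AP-1, 7.02% for GAS and 2.98% for ISRE, against 5.88%, 8.82% and 8.82% of member windows.

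Of 10 tested members of the monocyte group, 5 rose, none fell and 5 did not pass the test. Ccl2, the main monocyte chemoattractant (ENSMUSG00000035385), stood at 3.98, 4.16, 3.80 and 3.68 CPM in knockout 1 to 4. It stood at 0.527, 1.24, 0.698 and 0.364 CPM in wildtype 1 to 4. The libraries labelled knockout were close to each other and all lay far above those labelled wildtype. The difference was 5.54-fold (log2 fold change 2.47 ± 0.30 (SE), edgeR adjusted p = 0.000621). These values rest on 258 and 42 counts over the 4 libraries of each group.

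Ccl12, a mouse chemokine that also binds Ccr2 (ENSMUSG00000035352), stood at 2.16, 1.17, 0.783 and 2.09 CPM in knockout 1 to 4. In wildtype 1 to 4 it stood at 0.301, 0.511, 0.233 and 0.0607 CPM. The groups did not overlap, and knockout 3 and wildtype 2 were nearest to each other. Ccl12 rose, at a log2 fold change of 2.49 ± 0.51 (SE; edgeR adjusted p = 0.00992), from 16 to 100 counts. Ccl7, the third Ccr2 ligand, was too low to be tested: it had 16, 17, 6 and 11 counts in knockout 1 to 4, and 4, 1, 2 and 4 in wildtype 1 to 4. In the fit without a filter Ccl7 passed (log2 fold change 2.02 ± 0.52, edgeR adjusted p = 0.0194). Summed over Ccl2, Ccl7 and Ccl12, the Ccr2 ligands came to 4.92 to 7.07 CPM in knockout 1 to 4 and 0.667 to 1.83 CPM in wildtype 1 to 4. Ccr2 itself, the receptor that carries classical monocytes out of the marrow and into tissue, stood at 31.3, 14.5, 11.6 and 14.7 CPM in knockout 1 to 4. It stood at 5.88, 9.86, 5.36 and 6.01 CPM in wildtype 1 to 4, without overlap, and knockout 1 was far above the other libraries. Ccr2 rose, at a log2 fold change of 1.42 ± 0.35 (SE; edgeR adjusted p = 0.0323). That call ended when any of 5 libraries was left out, knockout 2, knockout 4, wildtype 1, wildtype 3 or wildtype 4 (adjusted p = 0.0537 to 0.0927), and held without knockout 1. It also ended in the fit without a filter on low counts (adjusted p = 0.091), and 11 of 20 other settings kept it.

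Ccl9, a ligand of Ccr1 made by macrophages (ENSMUSG00000019122), stood at 7.37, 3.75, 4.36 and 3.47 CPM in knockout 1 to 4. It stood at 1.51, 1.32, 1.86 and 1.09 CPM in wildtype 1 to 4, without overlap. It rose, at a log2 fold change of 1.71 ± 0.28 (SE; edgeR adjusted p = 0.0034). Its neighbour Ccl6, a macrophage chemokine, stood at 9.12, 6.61, 5.09 and 4.33 CPM in knockout 1 to 4 and at 3.09, 4.53, 3.78 and 3.94 CPM in wildtype 1 to 4. Knockout 4 lay below wildtype 2, and the log2 fold change of 0.72 ± 0.23 did not pass (edgeR adjusted p = 0.0706). Ccr1, the receptor of monocytes and neutrophils for these ligands, stood at 4.03, 2.93, 4.14 and 3.90 CPM against 1.21, 1.32, 3.14 and 3.03 CPM in wildtype 1 to 4 (log2 fold change 0.76 ± 0.31, edgeR adjusted p = 0.137). Ccr1 levels in wildtype 3 and wildtype 4 reached those of knockout 2. Ccl3 and Ccl4, which signal through Ccr1 among others, were too low to be tested, with 12 and 24 counts over the libraries labelled knockout and 14 and 22 over those labelled wildtype.

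Ccl8, a monocyte-attracting chemokine made by tissue macrophages, varied widely, at 6.90, 3.80, 1.68 and 4.84 CPM in knockout 1 to 4 and 0.8286, 1.61, 2.85 and 0.971 CPM in wildtype 1 to 4. Knockout 3 lay below wildtype 3, and the log2 fold change of 1.43 ± 0.48 (SE) did not pass (edgeR adjusted p = 0.0873). Without knockout 3 or without wildtype 3 it passed, with adjusted p = 0.0254 and 0.04. The eotaxins, which attract eosinophils, were low: Ccl11 had 87 and 43 counts per group (log2 fold change 0.91 ± 0.36, edgeR adjusted p = 0.13), and Ccl24 had 19 and 9 counts and was not tested.

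Of the fractalkine pair, the receptor rose and the ligand did not pass. Cx3cl1, a membrane-bound chemokine shed by endothelium and epithelium, stood at 115, 82.8, 91.1 and 90.1 CPM in knockout 1 to 4 and 82.0, 97.8, 88.1 and 78.6 CPM in wildtype 1 to 4. The groups overlapped, with a log2 fold change of 0.13 (95% interval -0.08 to 0.34; edgeR adjusted p = 0.471). Its receptor Cx3cr1, carried by resident macrophages and patrolling monocytes, stood at 17.0, 9.07, 10.5 and 13.8 CPM against 6.25, 7.45, 4.25 and 4.31 CPM in wildtype 1 to 4. Cx3cr1 rose, at a log2 fold change of 1.18 ± 0.24 (SE; edgeR adjusted p = 0.0107), without overlap. The difference between the changes of ligand and receptor was not tested.

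**Figure D1:**
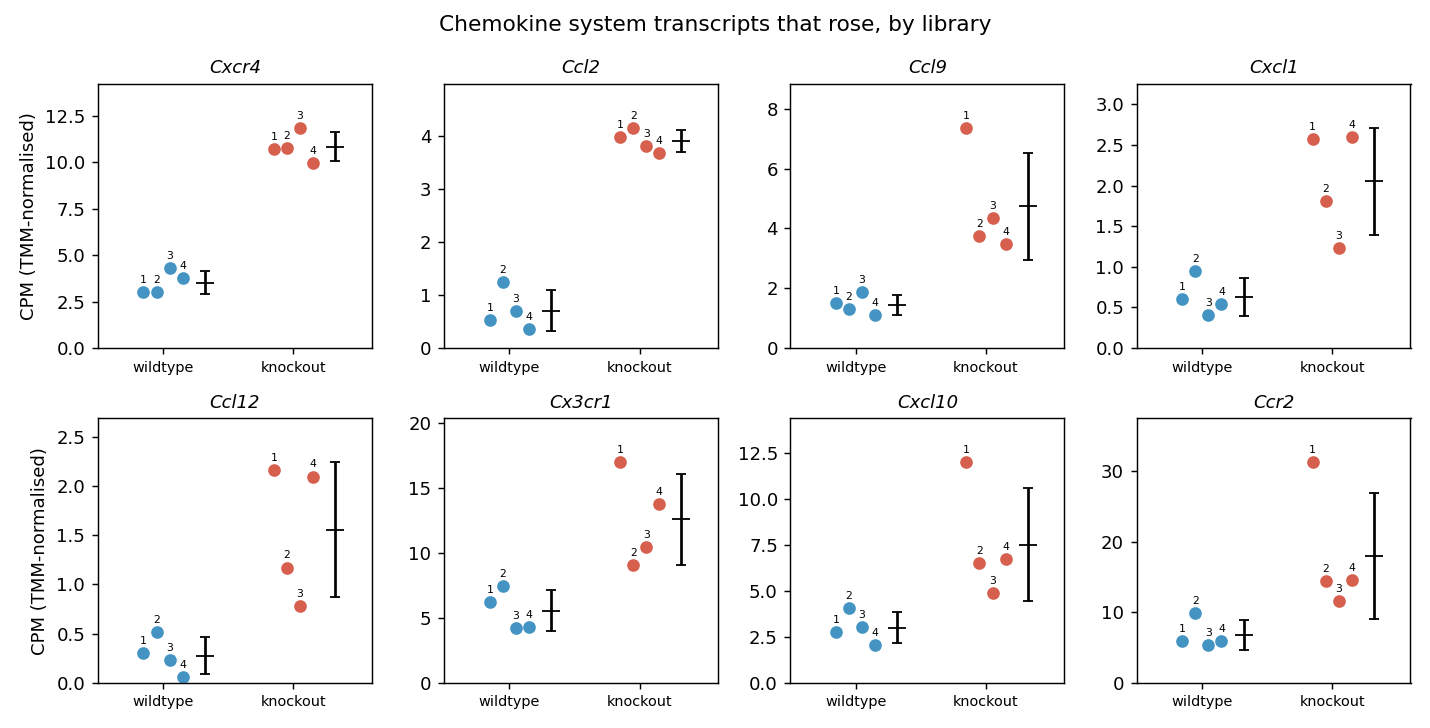
Each panel plots the TMM-normalised CPM (linear axis from 0) of 1 of the 8 members that rose in each of the 4 wildtype and 4 knockout libraries, with the replicate number above each point and the mean ± SD at the right. Cxcr4 is tight within both groups and Ccl2 within the knockout libraries, while Ccl2 ranges from 0.364 to 1.24 CPM in the wildtype libraries. Knockout 1 is the highest library for Ccl9, Ccl12, Cx3cr1, Cxcl10 and Ccr2.

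In the neutrophil group 1 member, Cxcl1, could be tested, and it rose. Cxcl1, released by stressed epithelium (ENSMUSG00000029380), stood at 2.57, 1.81, 1.23 and 2.60 CPM in knockout 1 to 4 and at 0.603, 0.950, 0.407 and 0.546 CPM in wildtype 1 to 4. The groups did not overlap (log2 fold change 1.71 ± 0.34 (SE), edgeR adjusted p = 0.00912). Cxcl2 had 8, 8, 4 and 5 counts in knockout 1 to 4, and 2, 2, 0 and 0 in wildtype 1 to 4. Cxcl5 had 7, 9, 8 and 5 counts in knockout 1 to 4, and 3, 1, 0 and 1 in wildtype 1 to 4. These 2 ligands did not overlap between the groups either, but with 25 against 4 and 29 against 5 counts they were left out of the test. In the fit without a filter, Cxcl5 passed (edgeR adjusted p = 0.0401) and Cxcl2 did not (adjusted p = 0.0635). Cxcr2, the neutrophil receptor for all 3 ligands, had 5 and 7 counts over the groups, at most 3 in any library. The neutrophil marker Ly6g had 0 counts in all 8 libraries, which allows up to 0.168 to 0.226 CPM in each (3 counts, counting error only). Over 10 neutrophil markers the summed CPM was 1.76 to 6.86 in knockout 1 to 4 and 2.55 to 3.43 in wildtype 1 to 4. Of these markers 8 were too low to be tested, and 0 of 2 tested markers passed. Ngp had 2, 1, 8 and 10 counts in knockout 1 to 4, and 1, 0, 0 and 0 in wildtype 1 to 4. Camp had 0, 1, 4 and 7 counts in knockout 1 to 4, and 1, 0, 0 and 0 in wildtype 1 to 4. No neutrophil marker had fewer counts over the libraries labelled knockout than over those labelled wildtype.

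In the lymphocyte group 1 of 7 tested members rose and 6 did not pass. Cxcl10, an interferon-induced ligand of Cxcr3 (ENSMUSG00000034855), stood at 12.0, 6.50, 4.87 and 6.72 CPM in knockout 1 to 4 and 2.79, 4.09, 3.03 and 2.06 CPM in wildtype 1 to 4. It rose without overlap, at a log2 fold change of 1.33 ± 0.30 (SE; edgeR adjusted p = 0.0161). In the GENCODE M21 annotation Cxcl10 shares 133 exon bases with Art3 on the opposite strand, and the counting did not use strand. Art3 stood at 6.17 ± 1.29 against 6.50 ± 1.62 CPM (SD, n = 4 each). The other ligands of Cxcr3 followed less tightly. Cxcl11 stood at 3.16, 1.52, 1.45 and 2.31 CPM against 0.979, 1.02, 0.698 and 1.40 CPM in wildtype 1 to 4, without overlap but with adjusted p = 0.0624 by edgeR (log2 fold change 1.04 ± 0.33). Of its 3794 exon bases Cxcl11 shares 1582 with the pseudogene Gm2673 on the opposite strand, which had 0 counts, so its level may be understated. Cxcl9 stood at 10.8 CPM in knockout 1 and 1.79 to 2.87 CPM in knockout 2 to 4, within the range of 1.70 to 3.36 CPM in the libraries labelled wildtype. Its log2 fold change of 0.87 ± 0.57 (SE, edgeR adjusted p = 0.37) rests on knockout 1. Cxcr3, carried by activated T cells and NK cells, had 0.98 ± 0.37 (edgeR adjusted p = 0.115), with 1.51 to 3.57 CPM against 0.728 to 1.68 CPM.

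Cxcl16, a membrane-bound ligand of Cxcr6 made by macrophages and epithelium, was the most abundant member of the lymphocyte group, at 70.03, 53.8, 55.8 and 58.6 CPM in knockout 1 to 4 and 47.4, 53.0, 43.7 and 51.2 CPM in wildtype 1 to 4. Its groups were next to each other without overlap, at a log2 fold change of 0.29 ± 0.095 (edgeR adjusted p = 0.0756, or 0.0235 when scaled by library totals alone). Cxcl16 shares 552 exon bases with Zmynd15 on the opposite strand. Zmynd15 lay higher too without passing, at 22.1 ± 5.09 against 16.2 ± 2.98 CPM (SD, n = 4 each). Its log2 fold change was 0.45 ± 0.17 (SE, edgeR adjusted p = 0.118). How far reads of Zmynd15 enter the Cxcl16 counts was not tested. Cxcr6, the receptor of tissue-resident T cells, stood at 4.97 CPM in knockout 1 and 1.70 to 2.09 CPM in knockout 2 to 4, against 1.36 to 2.996 CPM in the libraries labelled wildtype. Its log2 fold change was 0.47 (95% interval -0.28 to 1.23; edgeR adjusted p = 0.47). Ccl5, made by T cells and macrophages, had 0.79 ± 0.32 (edgeR adjusted p = 0.131).

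The other lymphocyte members were too low to be tested. Ccl17, a dendritic cell chemokine for Ccr4-bearing T cells, had 19, 14, 7 and 10 counts in knockout 1 to 4, and 2, 5, 3 and 2 in wildtype 1 to 4. It did not overlap between the groups and passed in the fit without a filter (edgeR adjusted p = 0.0229). Ccl22, which shares that receptor, had 50 counts in knockout 1 and 3 to 10 in the other 7 libraries. Xcl1, which attracts cross-presenting dendritic cells, had 14 counts in knockout 1 and 2 to 5 in each other library. Ccr6 had 20 and 13 counts per group, of which 12 were in knockout 1 and 11 in wildtype 3, and its ligand Ccl20 had 5 and 13.

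Of 5 tested members of the homeostatic group, Cxcr4 rose and 4 did not pass. Cxcr4, the receptor for Cxcl12 on leukocytes, endothelium and some tubule cells (ENSMUSG00000045382), stood at 10.7, 10.8, 11.9 and 9.97 CPM in knockout 1 to 4. It stood at 3.01, 2.996, 4.31 and 3.76 CPM in wildtype 1 to 4, and knockout 1 was not apart from the rest. The rise of 3.06-fold (log2 fold change 1.61 ± 0.15 (SE)) had the smallest adjusted p of all members (edgeR adjusted p = 9.31e-05). Its ligand Cxcl12, made by stromal and endothelial cells, stood at 328, 288, 291 and 258 CPM against 200, 278, 249 and 272 CPM in wildtype 1 to 4. The groups overlapped, with a log2 fold change of 0.22 ± 0.11 (edgeR adjusted p = 0.226). Ackr3, the receptor that binds and removes Cxcl12, stood at 73.8, 72.3, 71.1 and 69.5 CPM against 80.8, 74.9, 72.5 and 73.5 CPM. The log2 fold change of Ackr3 was -0.07 (95% interval -0.19 to 0.05; edgeR adjusted p = 0.487). Within this axis the receptor that signals through G proteins rose past the test, while the ligand and the scavenger did not pass.

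**Figure D2:**
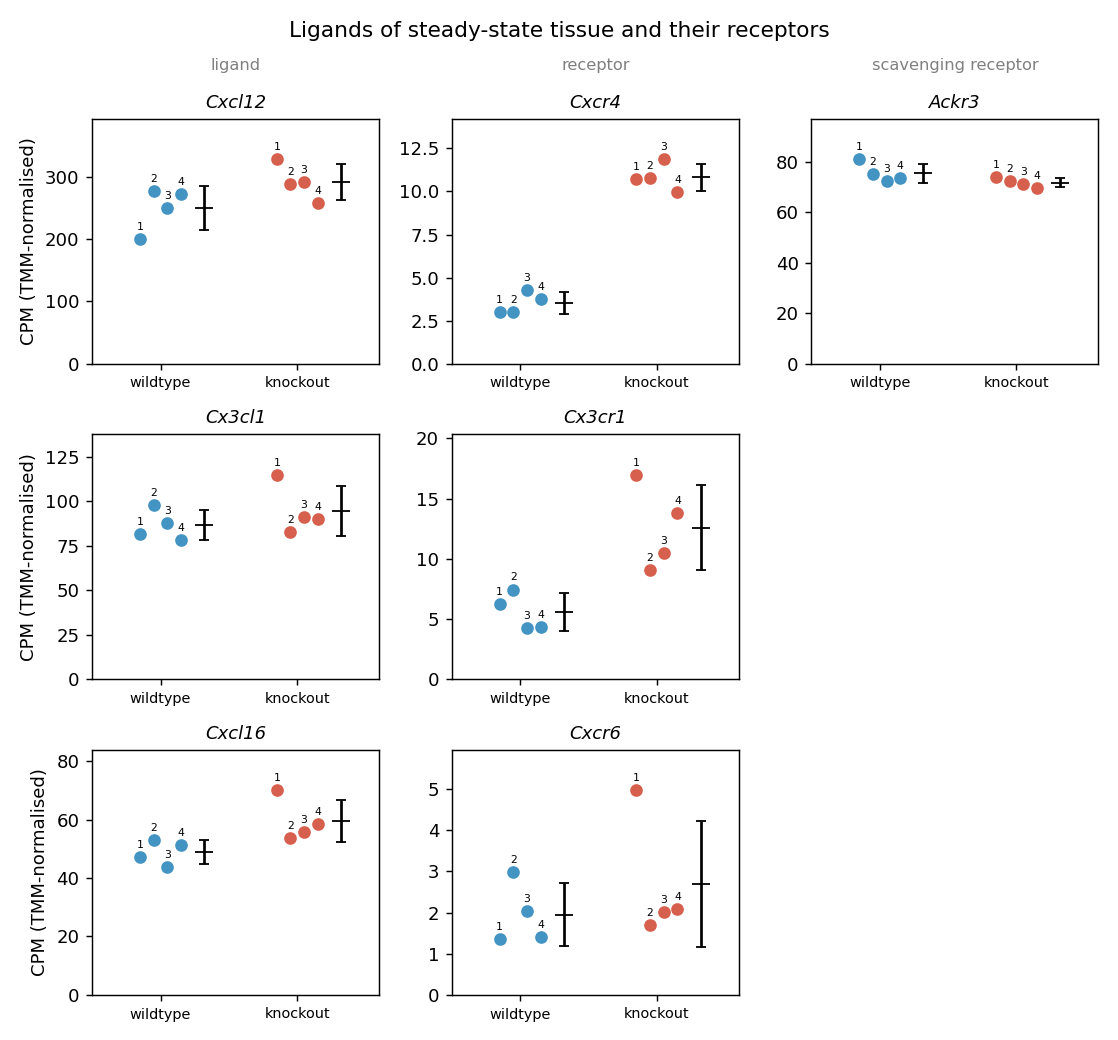
Rows plot the TMM-normalised CPM (linear axis from 0) of a ligand and its receptor in 4 wildtype and 4 knockout libraries, with replicate numbers and mean ± SD: Cxcl12 with Cxcr4 and the scavenger Ackr3, Cx3cl1 with Cx3cr1, and Cxcl16 with Cxcr6. Cxcr4 and Cx3cr1 do not overlap between the groups, whereas Cxcl12, Ackr3 and Cx3cl1 do. In the row of Cxcl16 the order is the reverse: the ligand does not overlap and its receptor Cxcr6 does.

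Cxcl14, an epithelial and stromal chemokine, stood at 73.1, 45.0, 27.5 and 45.9 CPM in knockout 1 to 4 and 32.5, 44.2, 26.1 and 23.5 CPM in wildtype 1 to 4, with overlap (log2 fold change 0.60 ± 0.32, edgeR adjusted p = 0.274). Cxcl13, the B cell follicle chemokine, stood at 4.15 CPM in knockout 1 and 0.722 to 0.951 CPM in knockout 2 to 4, against 0.303 to 1.68 CPM in the libraries labelled wildtype (log2 fold change 0.81 ± 0.72, edgeR adjusted p = 0.521). Ccl25, the thymus and gut chemokine, was low and slightly higher, at 4.91 to 6.73 against 3.69 to 4.71 CPM without overlap (0.44 ± 0.16, edgeR adjusted p = 0.1). It shares 204 exon bases with Elavl1 on the opposite strand. Ccl19 and its receptor Ccr7, which guide dendritic cells and naive T cells into lymphoid tissue, had 29 and 35 counts over the libraries labelled knockout and 15 and 33 over those labelled wildtype. Cxcl17, a mucosal chemokine, had 29 and 6 counts without overlap (adjusted p = 0.0671 by edgeR in the fit without a filter).

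None of the 3 tested atypical receptors passed. Ackr2, which degrades inflammatory CC chemokines, had a log2 fold change of -0.23 (95% interval -0.88 to 0.42) at 0.827 ± 0.209 against 0.976 ± 0.333 CPM (SD, n = 4 each). Ackr4, the scavenger of Ccl19 and Ccl25, had 0.64 (95% interval -0.07 to 1.34), and it shares 479 exon bases with Acad11 on the opposite strand. Ackr1, found on venules and red cells, had 9 and 10 counts and was not tested.

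Divided by exon length (CPM per kilobase, GENCODE M21), 5 members stood above the rest in the libraries labelled wildtype. They were Cxcl12 at 30.5, Ackr3 at 22.5, Cx3cl1 at 22.0, Cxcl14 at 17.3 and Cxcl16 at 16.2 CPM per kilobase, and none of them passed the test. The 8 members that rose had 0.334 to 1.95 CPM per kilobase in wildtype libraries and 1.10 to 5.99 in knockout libraries. All 8 thus stood below the 5 abundant members in both groups, while other members that did not rise, such as Ackr4 and Ackr2, were lower still.

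**Figure D3:**
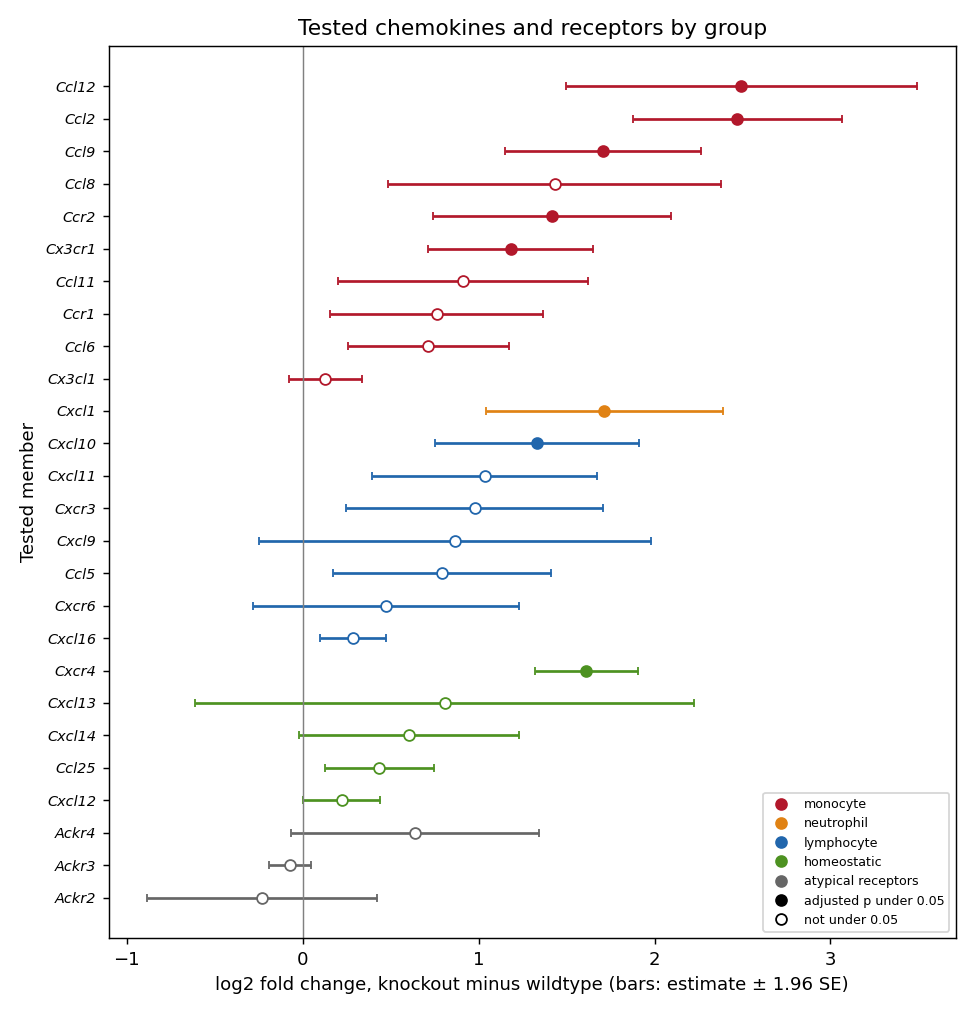
Points give the log2 fold change (knockout minus wildtype) of the 26 tested members, coloured by group, with bars for the 95% interval; filled points have an adjusted p under 0.05. The 8 filled points all lie above 1, from Cx3cr1 at 1.18 to Ccl12 at 2.49, and the points of Cx3cl1, Cxcl12 and Ackr3 lie near 0.

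Across libraries, knockout 1 was the highest of all 8 libraries for 17 of the 26 tested members, and wildtype 4 the lowest for 10. Without knockout 1 the same 8 members rose, and the median over tested members was 0.64 in place of 0.84. Without knockout libraries 1 and 4, 3 members rose, Ccl2, Ccl9 and Cxcr4, in a fit of 2 against 4 libraries. Without knockout 3, 13 rose: the same 8 with Ccl7, Ccl8, Ccl11, Ccl17 and Cxcl11.

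**Figure D4:**
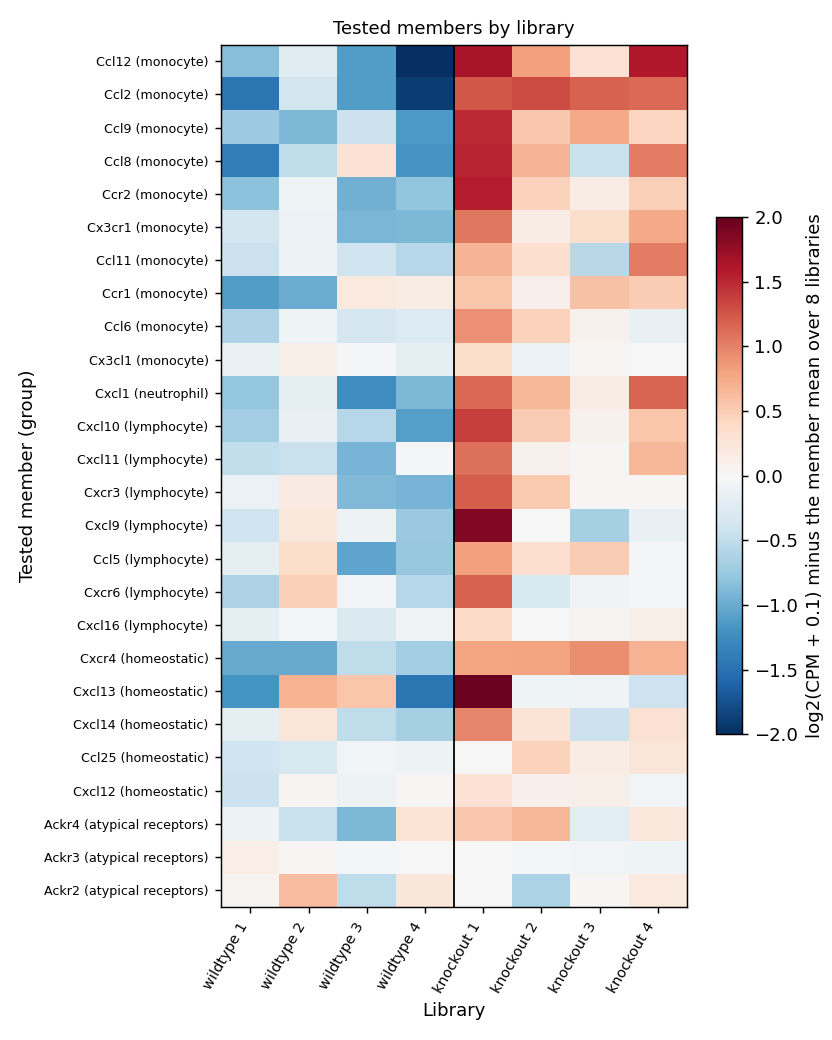
Colours give log2(CPM + 0.1) of each tested member in each library minus its mean over the 8 libraries, with members in rows by group and libraries in columns. The column of knockout 1 is the darkest red for most members, whereas the rows of Ccl2 and Cxcr4 are evenly red across the 4 knockout libraries.

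Among the cells that carry these receptors, most tested markers of macrophages and monocytes rose past the test, and few tested markers of other leukocytes did. By median log2 fold change the lists were less apart. It was 1.3 for macrophage, 1.25 for monocyte, 1.13 for dendritic cell and 0.79 for T and NK cell markers. For neutrophil, eosinophil and mast cell, and B cell markers it was 0.42, 0.24 and -0.24. Of 12 macrophage markers 10 rose and none fell, with a summed CPM of 403 to 624 in knockout 1 to 4 and 249 to 322 in wildtype 1 to 4. Mrc1, the macrophage mannose receptor, had the smallest adjusted p of them, at 20.6 ± 1.92 against 7.20 ± 0.468 CPM (SD, n = 4 each; edgeR adjusted p = 1.48e-05). Lyz2, the lysozyme of macrophages and monocytes, stood at 139 ± 53.4 against 29.9 ± 8.09 CPM (SD, n = 4 each), while Csf1r, the receptor for macrophage growth factor, stood at 107 ± 8.18 against 107 ± 10.1 CPM. Mertk lay lower without passing, at 69.2 ± 8.31 against 84.9 ± 11.6 CPM (edgeR adjusted p = 0.114). Of 8 monocyte markers 5 were tested and 4 rose (Ly6c2, Plac8, Itgam and F13a1), with a summed CPM of 30.8 to 45.6 against 18.9 to 24.4. Each of these sums had exact two-sided permutation p = 0.0286, the smallest that 70 assignments allow, and adjusted p = 0.0695 over 17 sums. Kidney tubule markers went the other way: of 8, 5 fell (Umod, Slc12a3, Slc12a1, Lrp2 and Slc34a1) and 2 rose, the collecting duct genes Aqp2 and Atp6v1g3. Their summed CPM was 11132 to 13733 in knockout 1 to 4 and 19798 to 21068 in wildtype 1 to 4, without overlap and with the same p. Umod, the main secreted protein of the thick ascending limb, had a log2 fold change of -1.01 ± 0.12 (SE, edgeR adjusted p = 0.000575). The part of these shifts in the rise of the chemokine genes was not tested.

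Of 14 T and NK cell markers 10 were tested and 1 rose, Il7r, with a summed CPM of 21.5 to 78.1 against 15.2 to 22.1; Cd8a alone gave 58.0 of 78.1 CPM in knockout 2. Of 8 B cell markers none of 6 tested passed, with sums of 62.2 to 179 against 25.0 to 75.8 CPM that were mostly Jchain. Of 8 dendritic cell markers 1 of 7 tested rose, Flt3, and 6 of the 7 had positive log2 fold changes. The summed CPM of the 8 was 55.3 in knockout 1 and 31.0 to 33.8 in knockout 2 to 4. In wildtype 1 to 4 it was 27.2 to 30.4, without overlap (exact two-sided permutation p = 0.0286, adjusted p = 0.0695 over 17 sums). Of 8 eosinophil and mast cell markers none of 2 tested passed, with sums of 45.4 to 64.5 against 41.5 to 51.8 CPM. The clock score, the mean log2 CPM of circadian output genes minus that of their activators, was -1.44 to 0.91 in knockout 1 to 4 and 0.19 to 3.36 in wildtype 1 to 4. With it as a term, 6 members rose, Ccl2, Ccl8, Ccl9, Ccl12, Cxcl10 and Cxcr4, whereas Ccr2, Cx3cr1 and Cxcl1 did not pass (edgeR adjusted p = 0.0553, 0.0853 and 0.0629). The log2 fold changes of those 3 were 1.93, 1.26 and 1.93 with the term and 1.42, 1.18 and 1.71 without it.

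Of 21 other ligands and receptors, 18 had a row, 9 were tested and 1 rose, Pf4, a platelet and macrophage chemokine, at 2.88 ± 0.504 against 0.784 ± 0.194 CPM (SD, n = 4 each; log2 fold change 1.86 ± 0.25, edgeR adjusted p = 0.0012). Of 20 genes that act below chemokine receptors, 18 were tested, 4 rose and 1 fell, with a median log2 fold change of 0.30. Rgs2, which shortens G protein signals, stood at 69.4 ± 9.99 against 34.9 ± 4.40 CPM (log2 fold change 0.99 ± 0.12, edgeR adjusted p = 0.00048). The other rising genes were Arrb2 (0.45 ± 0.097), Vav1 (0.88 ± 0.23) and Was (0.91 ± 0.27), and Arrb1, the other beta-arrestin, fell by 0.29 on the log2 scale (edgeR adjusted p = 0.045). Of 12 genes of chemokine clearance and mRNA decay, Mmp2 and Mmp14, which can cleave chemokines, rose (1.27 ± 0.19 and 0.86 ± 0.23) and 10 did not pass.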

How the data were processed

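Whole-kidney RNA of 8 mouse samples was sequenced, 4 labelled knockout and 4 labelled wildtype. The deposited values are raw counts of reads per Ensembl gene, 1 file per library. The build mm9 and the tools STAR, HTSeq and edgeR are named in the submitters' processing notes, without roles, versions or annotation. The file names give the counts as not stranded, so reads of overlapping genes on opposite strands are not separated. Assigned reads were 63.82% to 69.07% of all records, the rest being the counter's summary rows, which were left out. Symbols came from a gene name table (32860 of 37583 identifiers matched).

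Genes passing filterByExpr (15228) were scaled by TMM and compared with edgeR's quasi-likelihood test (edgeR 4.0.16, R 4.3.3, robust). The test was two-sided and had no covariate; p-values were adjusted by Benjamini-Hochberg across these genes and called under 0.05. CPM of every gene use the same TMM-scaled library sizes. The 95% intervals use the normal quantile times the SE and are narrower than the test allows. That of Cxcl12 was 0.005 to 0.44, although its unadjusted p was 0.07 by edgeR. Members not tested are given by their counts. The SE and the intervals come from the edgeR fit, which includes the spread between libraries, whereas the floors cover counting error only. The members, lists and settings were chosen with earlier results of these data known. All tested members may be named; of the other lists, those named come from the 4 smallest adjusted p and the highest gene. Exceptions, chosen after their values were seen, are Lyz2, Mertk, Ly6g, Ngp, Camp, Lrp2, Slc34a1, Aqp2 and Was. The rule for printing start regions covered the rising monocyte members (Ccl9, Ccl12, Cx3cr1 and Ccr2); Cxcl1 and Cxcl10 were added after their values were seen.

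Alternatives were scaling by library totals, DESeq2's size factors, upper quartile factors, DESeq2 1.42.0, limma voom (limma 3.58.1), other filters and thresholds, a replicate block, a clock term and leaving out libraries. The fits were tested on simulated data, with 50 changed genes at each size of change. There edgeR recovered 48% of 1.5-fold, 66% of 2-fold and 90% of 4-fold changes. The changed genes were drawn at random from all tested genes, so these shares need not hold for members with few counts. False calls were 5.59% of all calls by edgeR, 3.29% by limma voom and 15.1% by DESeq2. Libraries of a group differed from each other by more than sampling noise (chi-square divided by its degrees of freedom 9.72 to 24.8). Nothing in the labels ties replicates to litters or days, and p-values measure the spread between these samples.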

Additional observations from a re-analysis of the deposited data

Results flagged for a closer look

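In 86 groups of 4 values (the CPM of tested members and the summed CPM of other lists, per group), 10 had a library set apart, its gap to the nearest of the other 3 taking most of the group's range (the share is given in brackets). About 1 group in 20 is set apart in this way by chance. Knockout 1 was the highest for Ccr2 (0.8459), Cxcl9 (0.8797), Cxcr6 (0.8787) and Cxcl13 (0.9333), and for the summed CPM of chemokine receptor signalling genes (0.8646) and dendritic cell markers (0.8827). Wildtype 2 was the highest of its group for Ccr2 (0.8558).

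Outside the members, wildtype 4 was the highest for kidney tubule markers (0.9045), knockout 4 for adrenal markers (0.9947) and knockout 2 for Tfap2b (0.8887). Without knockout 1, Ccr2 still rose.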

How the results depend on the processing

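Of 515 values of single members under other settings, 473 kept their direction and their side of the threshold, 17 lost and 18 gained a call, and 7 changed sign, none of them past the test in either fit. Leaving out 1 library gave log2 fold changes of -0.0357 to 1.14 for Cxcl9, -0.0064 to 0.747 for Cxcr6 and -0.147 to 1.18 for Cxcl13, in each case lowest without knockout 1. Without knockout libraries 1 and 4 they were -0.0898, -0.0647 and -0.0408. With library totals only, Ackr3 was at 0.0330. Of the 20 other settings, 10 called all 8 members. Ccl2, Ccl9 and Cxcr4 passed under all 20, and 0 members fell under any. With library totals only, which moved the median of all genes by 0.11, 3 lymphocyte and 2 homeostatic members rose, and 1658 of all genes rose and 508 fell against 949 and 868. DESeq2 gave 2 rising lymphocyte members, and no filter gave 2 lymphocyte and 2 neutrophil members. At a threshold of 0.01, 706 genes differed in place of 1817, and 5 members rose (3 monocyte, 0 lymphocyte). At 0.10, 2850 genes differed and 3 lymphocyte members rose. With the clock term 700 genes differed and 0 neutrophil members rose, although the log2 fold change of Cxcl1 was 1.93 (1.71 without the term) and the members' median 1.26 (0.84). Without knockout libraries 1 and 4, 912 genes differed and 3 members rose (2 monocyte, 0 lymphocyte, 0 neutrophil). Leaving out 1 library gave 1076 to 1940 genes (1076 without knockout 2, 1176 without knockout 4). It gave 7 to 13 rising members, 4 to 8 in the monocyte group, 1 to 3 in the lymphocyte group (3 without knockout 3 or wildtype 2) and 1 each in the neutrophil and homeostatic groups. The causes of these shifts were not tested, beyond fewer libraries or genes.

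Replicate numbers did not pair the samples: same-numbered libraries deviated from their group means with correlations of -0.215, -0.21, -0.0527 and 0.157. A replicate block gave 1094 genes and the same 8 members. Members with few counts, as Cxcl2, Cxcl5 and Cxcr2, are limited by depth.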

Other observations

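Chemokine genes lie in clusters. By the GRCm38 annotation, used here for neighbours only, Ccl2, Ccl7, Ccl11, Ccl12 and Ccl8 follow each other on chromosome 11, and 2 of the 4 tested rose. Of a second run there, Ccl5, Ccl9, Ccl6, Ccl3 and Ccl4, 1 of 3 tested rose. Of Cxcr6, Ccr1 and Ccr2 on chromosome 9, which have other genes among them, 1 of 3 rose. Of Ccl22, Cx3cl1 and Ccl17 on chromosome 8, 0 of the 1 tested rose. On chromosome 5, 1 of the 1 tested rose of Cxcl1 and Cxcl2, and 1 of 2 of Cxcl9 and Cxcl10. Over all genes tested, 6.23% rose.

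Among stromal cells that also make chemokines, 4 of 8 fibroblast and pericyte markers rose (Col1a1, Col3a1, Dcn and Lum), with a summed CPM of 649 to 930 in knockout 1 to 4 and 437 to 549 in wildtype 1 to 4. All 8 endothelial markers had negative log2 fold changes (median -0.30), with a summed CPM of 582 to 692 against 682 to 879 that overlapped. Of the 8, 2 fell, Kdr (-0.65 ± 0.18, edgeR adjusted p = 0.0448) and Flt1 (-0.39 ± 0.097, adjusted p = 0.0236).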
